A study of Homo sapiens with 18 samples.

Results

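The genes described here are 39 genes of homologous recombination and the Fanconi anemia pathway, chosen by name, with earlier results of these data known. All 39 were found, MRE11 and SEM1 under their older symbols MRE11A and SHFM1, among 22136 genes in the 2-day count table and 21276 genes in the 7-day count table. RNA-seq was performed in C4-2B, a single human prostate cancer cell line that carries no engineered change by its labels. There were 6 groups of 3 libraries. After 2 days these were the DMSO vehicle and 0.1 μM VIC-1911, an inhibitor of the mitotic kinase AURKA. After 7 days they were the vehicle, 0.1 μM VIC-1911, 1 μM olaparib, an inhibitor of PARP enzymes, and the combination of both drugs at those doses. The comparisons ask how each drug, and their combination, changed the RNA of the genes with which cells repair DNA breaks and crosslinks.

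Homologous recombination repairs a broken chromosome by copying an intact sister. Broken ends are first trimmed to single strands by the MRE11-RAD50-NBN complex with RBBP8 (CtIP), BRCA1 with its partner BARD1 directs the break to this route, and BRCA2, held by PALB2, prepares the trimmed strand to invade the sister, helped by RAD51B, RAD51C, RAD51D, XRCC2, XRCC3, RAD52, RAD54L and RAD54B. BLM, WRN, the nucleases MUS81-EME1 and GEN1, and the scaffold protein SLX4 then take apart the joined molecules. In the Fanconi pathway a core complex of FANC proteins, with the conjugating enzyme UBE2T, attaches ubiquitin to the FANCD2-FANCI pair at DNA crosslinks, and USP1 removes it. Cells that lack recombination are sensitive to PARP inhibitors, and many of these genes are transcribed mainly in cycling cells.

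Total counts ran from 3245273 to 7184420 per library at 2 days and from 4967931 to 19684208 at 7 days, and all 39 genes passed the filter on low counts, the lowest single value being 10 reads, for FANCB. No pair of replicates matched within sampling noise. The labels number the replicates without saying that they came from separate cultures, so p-values measure the spread between these libraries. The 10 prostate luminal markers were present in every library (KLK3 at 1240 to 2700 FPKM, a read count scaled by gene length and library size). KRT5, DCN and CD3E, markers of basal cells, fibroblasts and T cells, were at 0 in all. Other basal, fibroblast and leukocyte markers were detected: KRT14 at 0.0908 to 2.89, COL1A1 at 1.1 to 2.27 and CD68 at 5.55 to 10.1 FPKM. Each of these was higher under the combination than in the 7-day vehicle. KRT14 was lower with VIC-1911 at 7 days, and COL1A1 at 2 days. At 7 days 6, 7 and 7 of the 10 luminal markers fell with VIC-1911, olaparib and the combination, and 1, 2 and 2 rose. Their median log2 fold changes were -0.23, -0.54 and -0.54. Of all tested genes 25.8%, 25.9% and 28.0% fell and 26.6%, 28.1% and 28.6% rose. After 2 days of VIC-1911, 1 of these luminal markers fell and 4 rose, against 7.19% and 7.50% of all tested genes. The part of the luminal markers in the results was not tested. The vehicle and VIC-1911 libraries of 7 days carry 1 run of consecutive library numbers, and the olaparib and combination libraries another. What the runs mark is not stated, so olaparib or the combination against vehicle cannot be told apart from a difference between the runs, whereas the VIC-1911 and vehicle libraries share a run, as do those of the combination and olaparib. In bulk RNA, fewer cells that express a gene and less RNA per cell cannot be told apart. Finally, 27 of the 39 genes overlap another annotated gene, 16 of them a protein coding one, and the strand setting of the counts is not given in the sources used here, so reads of overlapping parts may belong to either gene.

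Across the 6 groups the repair genes were highest in the 2-day vehicle and lowest in the 7-day vehicle or the combination. Their median FPKM was 6.14 to 6.63 per library in the 2-day vehicle and 4.91 to 5.29 after 2 days of VIC-1911. At 7 days it was 3.66 to 3.78 in the vehicle, 4.52 to 4.90 under VIC-1911, 4.04 to 4.46 under olaparib and 3.45 to 3.59 under the combination. By mean FPKM, 28 of the 39 genes were highest in the 2-day vehicle, 22 were lowest in the 7-day vehicle and 12 were lowest in the combination. Among the 7-day groups alone, 26 were highest under VIC-1911. The vehicle mean was lower at 7 days than at 2 days for 34 genes, with a median ratio of 0.562 against 0.955 over all genes with at least 1 FPKM in both. The ranks and the count of 34 were not made over all genes. The ranks also cross the 2 runs of library numbers. The 2 times are separate experiments with separate tables, and no test was made between their vehicles.

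**Figure D1:**
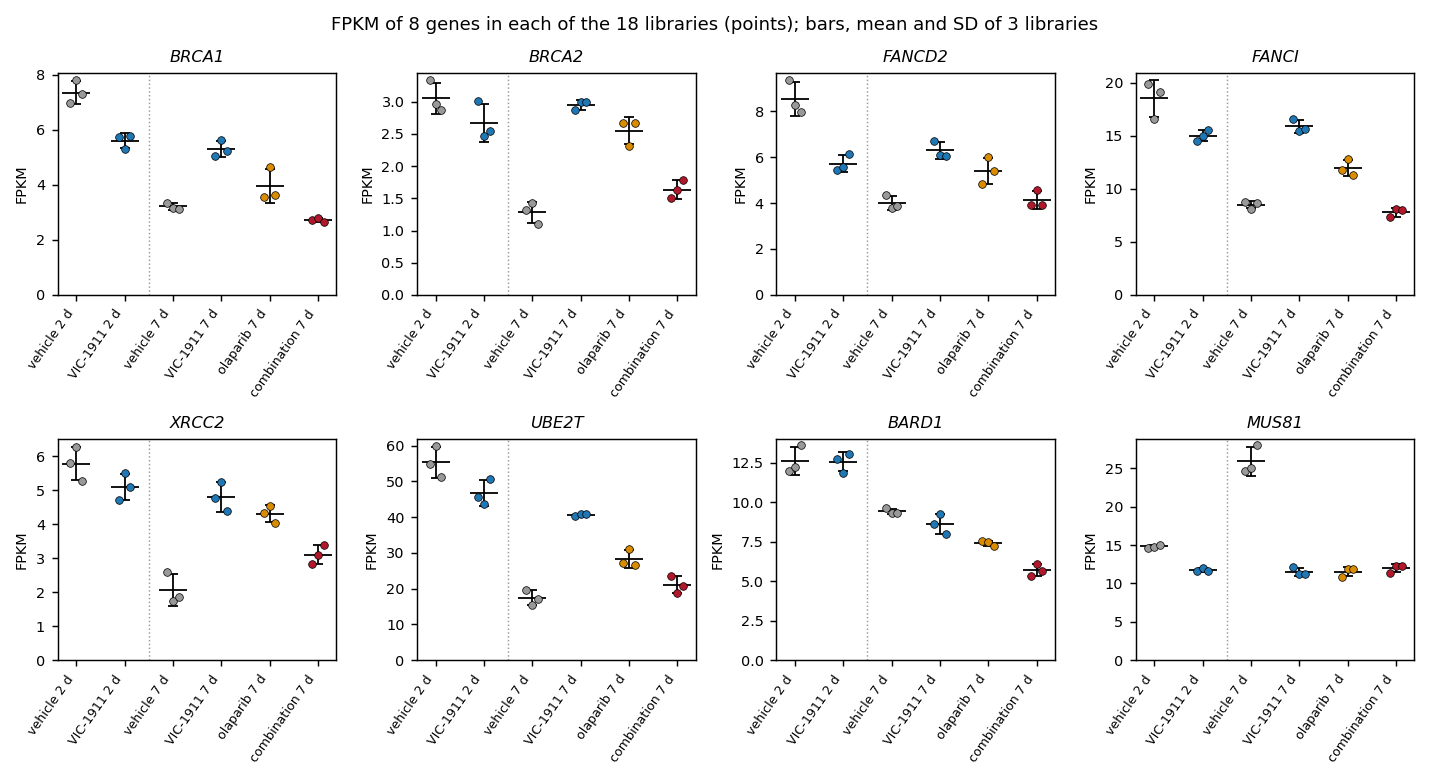
FPKM of 8 repair genes (y axis, each panel from 0) in each of the 18 libraries, by group (x axis). Points are libraries and bars are the mean and SD of 3 libraries. BRCA1, BRCA2, FANCD2, FANCI, XRCC2 and UBE2T are low in the 7-day vehicle, higher under either single drug and lower again under the combination, whereas MUS81 is at 24.6 to 28.0 in the 7-day vehicle and at 10.9 to 12.3 in all 9 treated libraries of that time.

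After 2 days of VIC-1911, 12 of the 39 repair genes were lower than in vehicle and 0 were higher, where 7.19% of all 12241 tested genes were lower and 7.50% higher (adjusted p under 0.05 in the quasi-likelihood test of edgeR with Benjamini-Hochberg adjustment over all tested genes, used throughout). At an unadjusted p under 0.05 edgeR also gave 0 higher genes and 17 lower, and DESeq2 gave 0 higher after adjustment. The median log2 fold change was -0.19 over the 39 genes and -0.00 over all tested genes. The 3 largest decreases were in Fanconi genes.

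FANCG, a subunit of the core complex, stood at 19.9, 18 and 17.3 FPKM in the vehicle libraries and at 11.2, 10.6 and 13.4 with VIC-1911. These groups did not overlap, and the log2 fold change was -0.59 ± 0.09 (SE, n = 3 against 3, edgeR adjusted p = 4.49e-06), the 1 decrease of at least 1.5-fold, a size that 1.33% of all genes passed downwards and 0.825% upwards. With vehicle replicate 1 or VIC-1911 replicate 1 or 2 left out 0 genes passed 1.5-fold, and with vehicle replicate 2 or 3 or VIC-1911 replicate 3 left out 2 did. FANCD2, which carries the ubiquitin mark of the pathway, stood at 9.37, 8.25 and 7.97 FPKM in vehicle and 5.45, 5.56 and 6.13 with the drug, also without overlap (log2 fold change -0.49 ± 0.08, edgeR adjusted p = 2.12e-05). FANCA, another core subunit, went from 4.68, 3.77 and 4.49 FPKM to 3.02, 3.04 and 3.15 (-0.49 ± 0.10, edgeR adjusted p = 0.000715). FANCI, the partner of FANCD2, went from 19.9, 16.6 and 19.1 to 14.5, 15 and 15.6 FPKM (-0.28 ± 0.06, edgeR adjusted p = 0.00227).

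Among the recombination genes, RAD54L, a motor protein that moves along DNA during strand invasion, was 8.59, 7.94 and 7.89 FPKM in vehicle and 5.93, 5.68 and 6.38 with VIC-1911 (log2 fold change -0.44 ± 0.10, edgeR adjusted p = 0.00187). BRCA1 was 6.96, 7.79 and 7.29 FPKM in vehicle and 5.75, 5.30 and 5.77 with the drug (-0.38 ± 0.08, edgeR adjusted p = 0.000461). The drug libraries lay below every vehicle library for both genes. BRCA2 did not pass, at 3.33, 2.96 and 2.87 against 3.01, 2.46 and 2.55 FPKM (-0.15 ± 0.09), nor did PALB2, at 2.22, 3.67 and 3.66 against 3.19, 2.66 and 3.75 FPKM (0.01 ± 0.15). The other genes that passed were RAD51AP1, XRCC3, RAD54B, MRE11A, UBE2T and MUS81, at -0.42 to -0.22. The calls of UBE2T, MRE11A, XRCC3 and RAD54B were lost when 1 library was left out, MRE11A with any of the 6 and the others with 4 of the 6. Here and below, the library named for a lost call is the one that gave the highest adjusted p. These were RAD54B without vehicle replicate 3 (-0.29, edgeR adjusted p = 0.254), MRE11A without VIC-1911 replicate 1 (-0.20, edgeR adjusted p = 0.176), XRCC3 without VIC-1911 replicate 1 (-0.19, edgeR adjusted p = 0.172) and UBE2T without vehicle replicate 2 (-0.18, edgeR adjusted p = 0.159). DESeq2 gave 7 lower genes. The long noncoding gene NBR2, which overlaps BRCA1, fell with it (-0.73, edgeR adjusted p = 0.00272). Beside these genes, 6 of 10 S phase genes and 5 of 10 G2 and mitosis genes fell (medians -0.24 and -0.18), and their part in the result was not tested.

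After 7 days of VIC-1911 the direction was the opposite for most of the repair genes. 23 of 39 were higher than in the 7-day vehicle and 4 were lower, where 26.6% of all 14409 tested genes were higher and 25.8% lower. The median log2 fold change was 0.40 over the 39 genes and -0.01 over all. Past 2-fold there were 4 higher genes, UBE2T, XRCC2, BRCA2 and RAD54B, and 1 lower gene, MUS81, with 3.46% and 3.43% of all genes past that limit. Without vehicle replicate 2, 3 genes passed it. Beside these genes all 10 S phase and all 10 G2 and mitosis genes rose (medians 1.11 and 1.4), and their part in the result was not tested.

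UBE2T, the enzyme that passes ubiquitin to FANCD2, stood at 19.7, 15.5 and 17.1 FPKM in the 7-day vehicle libraries and at 40.4, 41.0 and 40.8 with VIC-1911. Every drug library was at about the same level, well above the vehicle (log2 fold change 1.18 ± 0.09, edgeR adjusted p = 2.02e-12). XRCC2, a strand exchange mediator, rose from 2.59, 1.74 and 1.85 FPKM to 4.76, 5.25 and 4.37 (1.16 ± 0.13, edgeR adjusted p = 6.60e-09). BRCA2 rose from 1.32, 1.42 and 1.10 FPKM to 2.87, 2.99 and 3 (1.12 ± 0.09, edgeR adjusted p = 5.32e-12). These 3 genes did not overlap between the groups in any library. BRCA1 rose from 3.35, 3.15 and 3.13 to 5.05, 5.61 and 5.23 FPKM (0.68 ± 0.08, edgeR adjusted p = 3.26e-08). NBR2, which overlaps BRCA1, fell from 12.9 to 15.3 FPKM in vehicle to 3.01 to 5.38 with VIC-1911 (-1.72, edgeR adjusted p = 3.16e-12).

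In the Fanconi pathway, FANCI stood at 8.74, 8.13 and 8.69 FPKM in vehicle and 16.6, 15.4 and 15.7 with VIC-1911 (0.86 ± 0.06, edgeR adjusted p = 6.19e-13), and FANCD2 at 4.36, 3.78 and 3.87 against 6.72, 6.10 and 6.07 (0.60 ± 0.08, edgeR adjusted p = 1.95e-07). Neither overlapped between the groups. Of the 8 core genes, 5 rose (FANCA, FANCB, FANCC, FANCG and FANCM, 0.34 to 0.74), and FANCE, FANCF and FANCL did not pass. Of the 9 mediators and paralogs, 6 rose, among them RAD54B (1.03 ± 0.11) and RAD54L (0.93 ± 0.10). RAD51AP1, a helper of strand invasion, stood at 4.31, 4.02 and 5.25 FPKM in vehicle and at 9.23, 8.01 and 8.19 with the drug, without overlap (0.90 ± 0.10, edgeR adjusted p = 1.77e-08). Of the 5 end resection genes, MRE11A, NBN and RAD50 rose by small amounts (0.27, 0.22 and 0.15), and among the helicases and nucleases BLM, EME1 and GEN1 rose (0.80, 0.86 and 0.71). PALB2, at 2.41, 2.42 and 2.04 against 2.96, 2.73 and 2.84 FPKM, did not pass (0.24 ± 0.10, edgeR adjusted p = 0.058).

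The 4 lower genes differed widely in size. MUS81, the nuclease that cuts stalled forks and joined chromosomes (chromosome 11, 65859674 to 65867653, GRCh38.p14), stood at 24.6, 25.1 and 28.0 FPKM in vehicle and at 12.1, 11.2 and 11.2 with VIC-1911 (log2 fold change -1.21 ± 0.06, edgeR adjusted p = 1.37e-15). It shares 1213 bases with the gene EFEMP2, which fell as well, at 0.713 to 1.04 FPKM in vehicle and 0.382 to 0.722 with VIC-1911 (-0.75, edgeR adjusted p = 0.0243). The part of shared reads was not tested. RAD52 was 3.20, 3.78 and 3.65 against 3.01, 3.35 and 2.52 FPKM (-0.31 ± 0.11, edgeR adjusted p = 0.0183), BARD1 was 9.64, 9.34 and 9.30 against 8.60, 9.29 and 8.01 (-0.18 ± 0.06, edgeR adjusted p = 0.0176), and WRN was 3.79, 4.18 and 3.87 against 3.56, 3.69 and 3.42 (-0.20 ± 0.09, edgeR adjusted p = 0.0484). RAD52 overlapped between the groups, and BARD1 and WRN did not, by narrow gaps. Without VIC-1911 replicate 3, MUS81 was the 1 lower gene, with RAD52 at -0.19, BARD1 at -0.12 and WRN at -0.17 (edgeR adjusted p = 0.193, 0.159 and 0.173). The call of WRN was lost without 5 of the 6 libraries, with an edgeR adjusted p of up to 0.177 without vehicle replicate 2, and that of RAD52 also without vehicle replicate 2 (-0.26, edgeR adjusted p = 0.0978). The rises of RAD50, FANCB and MRE11A were lost with 4, 5 and 1 of the 6 libraries left out in turn, RAD50 without vehicle replicate 3 (0.10, edgeR adjusted p = 0.207), FANCB without vehicle replicate 1 (0.51, edgeR adjusted p = 0.123) and MRE11A without vehicle replicate 2 (0.20, edgeR adjusted p = 0.056).

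**Figure D2:**
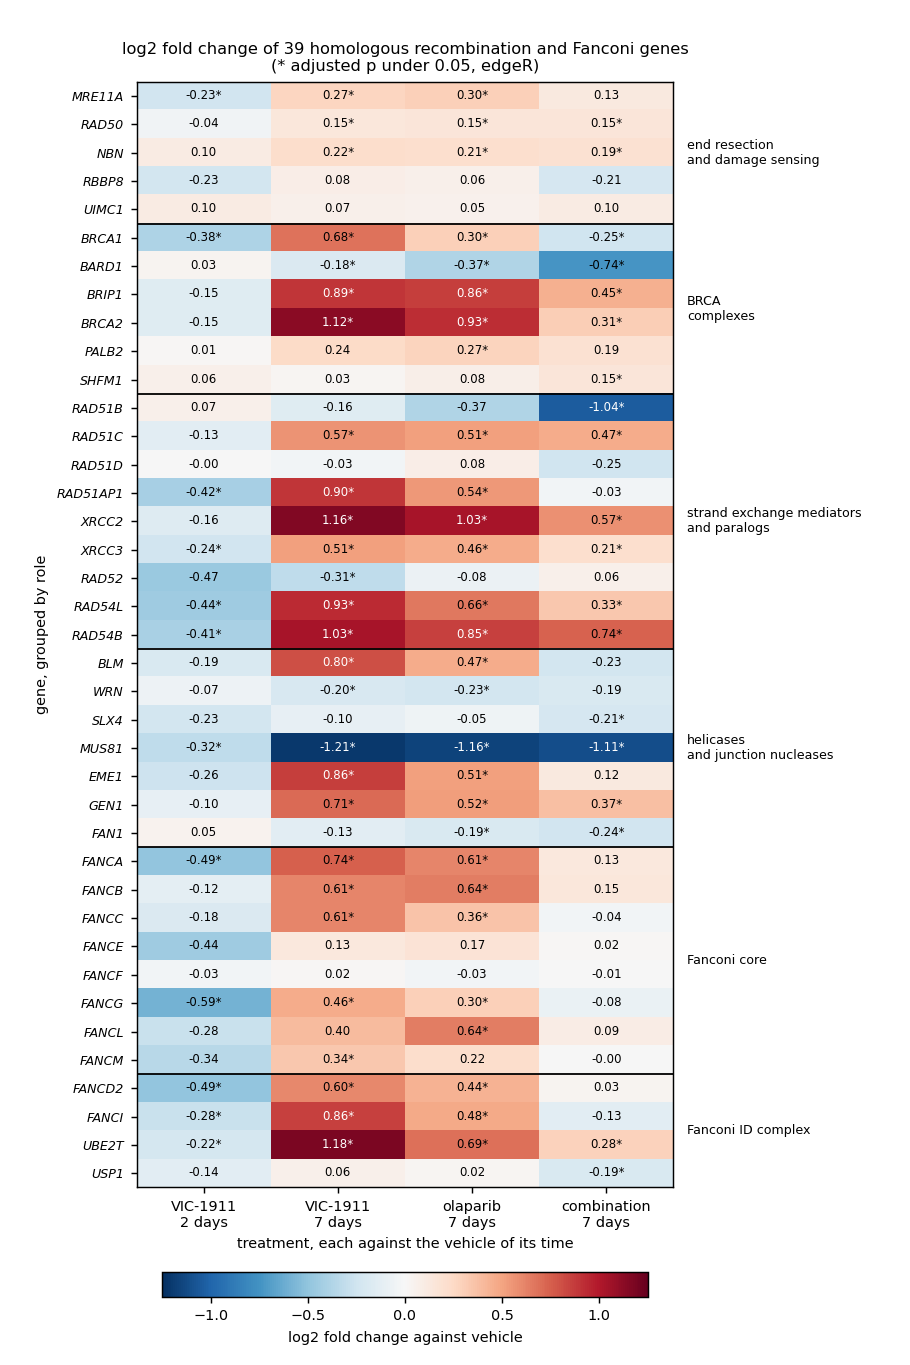
log2 fold changes of the 39 genes (rows, grouped by role) under each treatment against the vehicle of its time (columns), blue lower and red higher, with an asterisk where the edgeR adjusted p was under 0.05. The column of 2-day VIC-1911 holds 12 decreases, those of 7-day VIC-1911 and olaparib hold 23 and 24 increases, and the combination holds 12 increases and 7 decreases, with MUS81 below -1 in every 7-day column.

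Olaparib for 7 days, against the same vehicle libraries, gave 24 higher and 4 lower genes of 39, where 28.1% of all tested genes were higher and 25.9% lower, and the median log2 fold change was 0.30 against 0.01 over all genes. XRCC2, at 4.33, 4.55 and 4.04 FPKM, was the 1 gene at least 2-fold above the vehicle (1.03 ± 0.13, edgeR adjusted p = 7.18e-08), and MUS81, at 10.9, 11.8 and 11.9 FPKM, the 1 gene at least 2-fold below it (-1.16 ± 0.06, edgeR adjusted p = 3.47e-15), with 3.63% and 3.53% of all genes past those limits. Without vehicle replicate 2 or 3, 1 gene was past 2-fold. EFEMP2, which overlaps MUS81, did not pass under olaparib (-0.62, edgeR adjusted p = 0.0542). BRCA2 stood at 2.67, 2.32 and 2.67 FPKM, above every vehicle library (0.93 ± 0.09, edgeR adjusted p = 4.44e-10). All 10 S phase genes and 8 of 10 G2 and mitosis genes rose as well (medians 0.88 and 0.40), and their part in the result was not tested.

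BRCA1 was 3.55, 4.65 and 3.61 FPKM under olaparib (0.30 ± 0.08, edgeR adjusted p = 0.00339). Olaparib replicate 2 was the high library, and without it the value was 0.15 (edgeR adjusted p = 0.143). NBR2, which overlaps BRCA1, was lower under olaparib (-1.52, edgeR adjusted p = 2.43e-11). FANCI was 11.7, 12.8 and 11.3 FPKM (0.48 ± 0.06, edgeR adjusted p = 1.46e-07), and FANCD2 was 4.83, 5.99 and 5.40 (0.44 ± 0.08, edgeR adjusted p = 3.13e-05). Both lay above all vehicle libraries. PALB2, at 3.08, 2.89 and 2.74 FPKM, passed here (0.27 ± 0.10, edgeR adjusted p = 0.0265), though not without vehicle replicate 3 (0.21, edgeR adjusted p = 0.108).

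BARD1, at 7.54, 7.46 and 7.25 FPKM, lay below all vehicle libraries (-0.37 ± 0.06, edgeR adjusted p = 1.20e-05), as did FAN1, a crosslink repair nuclease, at 4.34, 4.46 and 4.39 against 5.14, 4.84 and 4.85 (-0.19 ± 0.06, edgeR adjusted p = 0.00641). WRN was 3.19, 3.34 and 3.6 FPKM (-0.23 ± 0.09, edgeR adjusted p = 0.0258). By role, 5 of 8 core genes, 3 of 4 genes of the FANCD2-FANCI cycle, 6 of 9 mediators and paralogs, 4 of 6 BRCA complex genes and 3 of 5 end resection genes rose. In the group of helicases, nucleases and SLX4, 3 of 7 rose and 3 fell (median -0.05). BARD1 was the 1 BRCA complex gene that fell. Calls lost with 1 library left out, some of them with any of 2 to 4 libraries, were those of RAD50 (without olaparib replicate 3, 0.10, edgeR adjusted p = 0.249), WRN (without vehicle replicate 2, -0.19, edgeR adjusted p = 0.12), FANCB (without vehicle replicate 1, 0.54, edgeR adjusted p = 0.10), BLM (without vehicle replicate 2, 0.42, edgeR adjusted p = 0.0788), FANCG and FANCC (without vehicle replicate 2, 0.24 and 0.27, edgeR adjusted p = 0.0631 and 0.0504), FANCL (without olaparib replicate 2, 0.50, edgeR adjusted p = 0.0612) and NBN (without vehicle replicate 3, 0.15, edgeR adjusted p = 0.0512), beside BRCA1 and PALB2 above.

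Under the combination, 12 of 39 genes were higher than in vehicle and 7 lower, where 28.6% of all tested genes were higher and 28.0% lower, and the median log2 fold change was 0.06 against 0.00 over all genes. None was at least 2-fold higher (4.55% of all genes were), and MUS81 and RAD51B were at least 2-fold lower (4% of all). None of the 8 Fanconi core genes passed, at -0.08 to 0.15. Of the S phase genes 6 of 10 rose (median 0.30), and of the G2 and mitosis genes 2 rose and 4 fell (-0.09), and their part in the result was not tested.

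MUS81 stood at 11.4, 12.3 and 12.2 FPKM, below every vehicle library (fold change 0.463, log2 -1.11 ± 0.06, edgeR adjusted p = 3.35e-15). RAD51B, a strand exchange mediator of low expression, was 1.03, 0.926 and 1.00 FPKM in vehicle and 0.394, 0.412 and 0.626 under the combination, without overlap (-1.04 ± 0.22, edgeR adjusted p = 0.000213). Without combination replicate 1 or 2 it was under 2-fold. EFEMP2 was lower too (-1.07, edgeR adjusted p = 0.00187). BARD1 fell to 5.35, 6.12 and 5.62 FPKM (-0.74 ± 0.06, edgeR adjusted p = 4.04e-11), below every library of the other 7-day groups. BRCA1 stood at 2.72, 2.77 and 2.63 FPKM, below every vehicle library (-0.25 ± 0.09, edgeR adjusted p = 0.0123), and NBR2 at 4.08 to 4.77 FPKM was lower as well (-1.64, edgeR adjusted p = 2.7e-12). The part of shared reads was not tested. FAN1, SLX4 and USP1 fell by 0.24, 0.21 and 0.19 on the log2 scale.

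On the other side, RAD54B stood at 0.752, 0.655 and 0.615 FPKM in vehicle and 1.10, 1.15 and 1.19 under the combination (0.74 ± 0.11, edgeR adjusted p = 2.08e-06). XRCC2 stood at 2.81, 3.10 and 3.37 FPKM (0.57 ± 0.13, edgeR adjusted p = 0.000506), above the vehicle and below every olaparib and VIC-1911 library. BRCA2 was 1.5, 1.62 and 1.78 FPKM, with little room above the vehicle (0.31 ± 0.09, edgeR adjusted p = 0.00507). FANCI at 7.30, 8.11 and 7.98 FPKM, FANCD2 at 3.93, 4.57 and 3.90 and PALB2 at 2.49, 2.96 and 2.60 did not pass (-0.13 ± 0.06, 0.03 ± 0.08 and 0.19 ± 0.10). For FANCD2 the 95% interval of the log2 fold change was -0.13 to 0.19. With 1 library left out, for RAD50, SHFM1, RAD54L and UBE2T with any of 2 to 4 libraries, the calls of BRCA2 (without combination replicate 3, 0.24, edgeR adjusted p = 0.0512), UBE2T (without vehicle replicate 2, 0.17, edgeR adjusted p = 0.171), RAD54L (without vehicle replicate 2, 0.27, edgeR adjusted p = 0.0685), RAD50 (without combination replicate 3, 0.11, edgeR adjusted p = 0.189), SHFM1 (without combination replicate 1, 0.06, edgeR adjusted p = 0.421), NBN (without vehicle replicate 3, 0.14, edgeR adjusted p = 0.0675) and SLX4 (without vehicle replicate 2, -0.18, edgeR adjusted p = 0.0932) were lost.

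The 3 comparisons with vehicle at 7 days share the vehicle libraries, so their values are set side by side. From VIC-1911 to olaparib to the combination, BRCA1 was at 0.68, 0.30 and -0.25, BRCA2 at 1.12, 0.93 and 0.31, FANCI at 0.86, 0.48 and -0.13, RAD51AP1 at 0.90, 0.54 and -0.03, BLM at 0.80, 0.47 and -0.23, and UBE2T at 1.18, 0.69 and 0.28 on the log2 scale. MUS81 (-1.21, -1.16 and -1.11), NBN (0.22, 0.21 and 0.19), RAD50 (0.15, 0.15 and 0.15) and RAD51C (0.57, 0.51 and 0.47) stood at about the same value in each. BARD1 went the other way, at -0.18, -0.37 and -0.74.

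**Figure D3:**
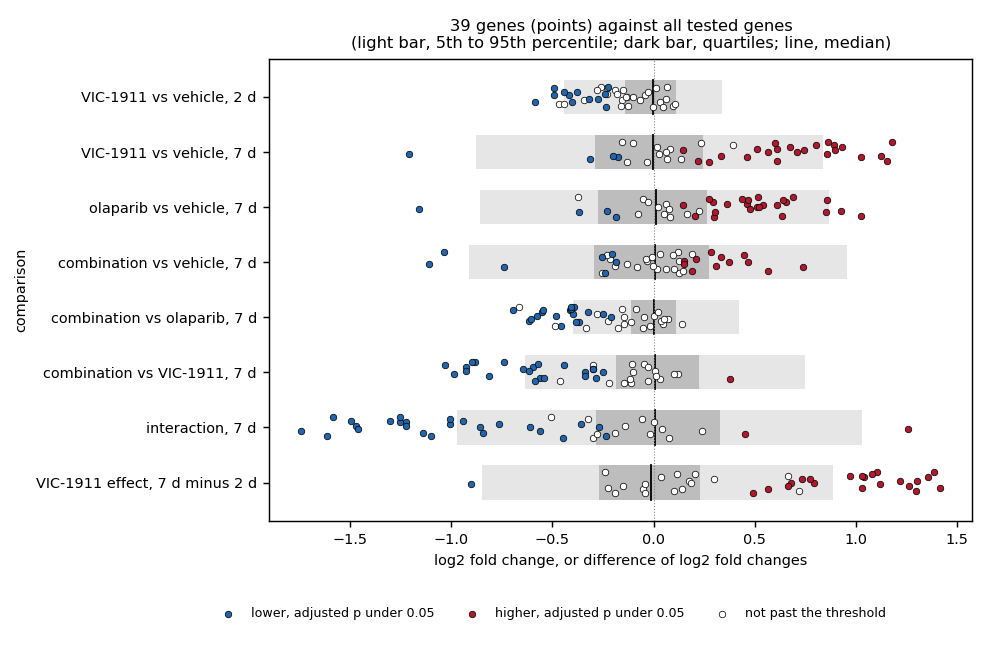
log2 fold changes of the 39 genes (points; blue lower, red higher, white not past an edgeR adjusted p of 0.05) in the 8 comparisons (rows), over the 5th to 95th percentile (light bars), quartiles (dark bars) and median (line) of all tested genes. The points lie mostly above the median of all genes for VIC-1911 and olaparib at 7 days, close to it for the combination against vehicle, and mostly below it for VIC-1911 at 2 days and for the combination against either drug.

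Set directly against olaparib alone, the combination was lower in 18 of the 39 genes and higher in 0, where 6.95% of all tested genes were lower and 4.55% higher. No gene was higher at an unadjusted p under 0.05 by edgeR, and none by DESeq2 after adjustment. The decreases took in all 4 genes of the FANCD2-FANCI cycle, 4 of the 6 BRCA complex genes and 4 each of the core genes and of the mediators and paralogs. In the group of helicases, nucleases and SLX4, 2 of 7 were lower. None of the 5 end resection genes passed, at -0.28 to 0.05, RBBP8 being the lowest (edgeR adjusted p = 0.0663). UBE2T stood at 27.3, 31.1 and 26.6 FPKM under olaparib and 23.6, 18.8 and 20.7 under the combination, and RAD51AP1 at 6.73, 6.25 and 6.58 against 3.81, 4.40 and 4.76, neither with overlap. The decreases were largest in BLM (-0.70 ± 0.17), BRCA2 (-0.62 ± 0.08), FANCI (-0.61 ± 0.06), RAD51AP1 (-0.57 ± 0.10) and BRCA1 (-0.55 ± 0.08). The edgeR adjusted p ranged from 7.46e-08 for FANCI to 0.00526 for BLM among these 5. All 10 S phase genes and 9 of 10 G2 and mitosis genes were lower too (medians -0.40 and -0.57), and their part in the result was not tested. Calls of 9 genes were lost with 1 library left out, and the count was then 12 to 18. The loss was of 7 calls without olaparib replicate 2, 5 without combination replicate 1, 4 each without olaparib replicate 3 and combination replicate 3, 2 without combination replicate 2 and 1 without olaparib replicate 1. EME1 was lost with any of the 6, and FANCL and RAD54L with 4. EME1, FANCL, USP1, XRCC2 and FANCA had their highest p without olaparib replicate 2 (-0.40, -0.40, -0.19, -0.41 and -0.35, edgeR adjusted p = 0.099, 0.28, 0.0901, 0.0646 and 0.0737). RAD54L and FANCC had theirs without olaparib replicate 3 (-0.24 and -0.36, edgeR adjusted p = 0.228 and 0.0688), BRIP1 without combination replicate 3 (-0.36, edgeR adjusted p = 0.0785) and BLM without combination replicate 1 (-0.52, edgeR adjusted p = 0.0656).

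Against VIC-1911 alone the combination was lower in 22 genes and higher in 1, where 22.2% of all tested genes were lower and 20.7% higher. FANCI (-0.99 ± 0.06, edgeR adjusted p = 5.63e-14), BRCA1 (-0.93 ± 0.08), RAD51AP1 (-0.93 ± 0.10), UBE2T (-0.90 ± 0.08) and BRCA2 (-0.82 ± 0.08) were among the decreases. The 1 higher gene was RAD52 (0.38 ± 0.11, edgeR adjusted p = 0.00545), and without VIC-1911 replicate 3 its value was 0.25 (edgeR adjusted p = 0.0866). RBBP8 and RAD54B, lower by 0.30 and 0.29, each lost their calls with 3 of the 6 libraries left out in turn, RBBP8 without VIC-1911 replicate 3 (edgeR adjusted p = 0.121) and RAD54B without VIC-1911 replicate 1 (edgeR adjusted p = 0.0935). All 10 S phase genes and all 10 G2 and mitosis genes were lower too (medians -0.76 and -1.5), as were 6 of 10 luminal markers, with 2 higher, and their part in the result was not tested. This comparison crosses the 2 runs of library numbers.

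The effect of VIC-1911 in the presence of olaparib was then compared with its effect in the absence of olaparib, as the interaction term of the 12 libraries of 7 days. Past the threshold it was below 0 for 25 genes and above 0 for 2, against 22.9% and 21.0% of all tested genes. Whether past it or not, 33 values were below 0 and 6 above. The median was -0.61 over the 39 genes and 0.01 over all. BRCA2 had the most negative value: VIC-1911 changed it by 1.12 without olaparib and by -0.62 with it, a difference of -1.74 ± 0.12 on the log2 scale (edgeR adjusted p = 8.85e-13). For FANCI the 2 effects were 0.86 and -0.61 (difference -1.46 ± 0.09, edgeR adjusted p = 1.99e-14), for UBE2T 1.18 and -0.41 (-1.59 ± 0.12, edgeR adjusted p = 9.57e-12), for RAD51AP1 0.90 and -0.57 (-1.47 ± 0.15, edgeR adjusted p = 1.84e-09) and for BRCA1 0.68 and -0.55 (-1.22 ± 0.12, edgeR adjusted p = 6.17e-10). Each of these genes rose with VIC-1911 alone and fell when it was added to olaparib.

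MUS81 showed the opposite. VIC-1911 changed it by -1.21 without olaparib and by 0.05 with it, a difference of 1.26 ± 0.09 (edgeR adjusted p = 5.19e-12). Its level was 10.9 to 11.9 FPKM under olaparib alone and 11.4 to 12.3 under the combination. RAD52 was the other gene above 0 past the threshold (0.45 ± 0.15, edgeR adjusted p = 0.0166). By role, the interaction passed below 0 for 4 of 4 genes of the FANCD2-FANCI cycle, 6 of 8 core genes and 6 of 9 mediators and paralogs. It also passed below 0 for 3 of 6 BRCA complex genes, 3 of 5 end resection genes and 3 of 7 in the group of helicases, nucleases and SLX4. With 1 library left out, 4, 8 and 5 of the 12 in turn, the calls of RAD52 (without VIC-1911 replicate 3, 0.33, edgeR adjusted p = 0.0912), RBBP8 (same library, -0.29, edgeR adjusted p = 0.129) and NBN (without vehicle replicate 3, -0.18, edgeR adjusted p = 0.0908) were lost.

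**Figure D4:**
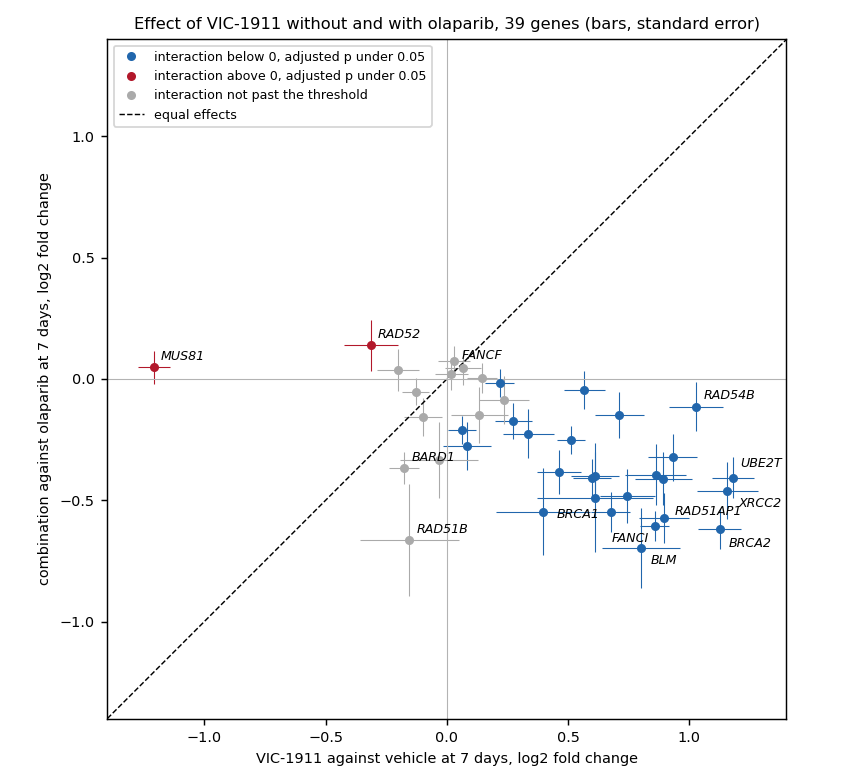
Effect of VIC-1911 on the 39 genes at 7 days with olaparib (y axis, combination against olaparib) and without it (x axis, VIC-1911 against vehicle), both as log2 fold changes with standard errors. Blue points have an interaction below 0 and red points above 0 at an edgeR adjusted p under 0.05, and the dashed line marks equal effects. Most points lie to the right of 0 and below the line, and MUS81 lies far to the left of it.

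The change of direction of the VIC-1911 effect between 2 and 7 days was tested in the 12 libraries of both times, each effect against the vehicle of its own time. The effect was higher at 7 days for 21 of the 39 genes and lower for 1, where 14.6% of all 13832 tested genes were higher and 14.2% lower, with a median difference of 0.67 over the 39 genes and -0.01 over all. Of the 12 genes that fell at 2 days, 11 were among the 23 that rose at 7 days: BRCA1, RAD51AP1, XRCC3, RAD54L, RAD54B, MRE11A, FANCA, FANCD2, FANCG, FANCI and UBE2T. The twelfth, MUS81, fell at both times, from 14.7, 14.8 and 15 FPKM to 11.6, 12 and 11.7 at 2 days, and its decrease was larger at 7 days (difference -0.90 ± 0.11, edgeR adjusted p = 3.28e-09). How many of all tested genes fell at 2 days and rose at 7 days was not counted. The effect was also higher at 7 days for all 10 S phase and all 10 G2 and mitosis genes (median differences 1.33 and 1.55). The part of these cell cycle genes in the result was not tested. Among the 39 genes the differences were largest for RAD54B (1.42 ± 0.18), UBE2T (1.39 ± 0.11), RAD54L (1.36 ± 0.14), RAD51AP1 (1.30 ± 0.15) and XRCC2 (1.30 ± 0.19). FANCE passed as well (0.56 ± 0.22, edgeR adjusted p = 0.0486), but not with any of 8 of the 12 libraries left out, the highest p being that without vehicle replicate 3 of 2 days (0.38, edgeR adjusted p = 0.283). RAD51D, FANCF and UIMC1 passed in none of the 8 comparisons. FANCF, a core subunit, stood at 9.69 to 12.6 FPKM in all 18 libraries.

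Cell cycle genes were measured in the same libraries. The summed FPKM of 10 S phase genes, the MCM helicase, PCNA and nucleotide enzymes among them, was 341 to 350 and 286 to 294 in vehicle and VIC-1911 libraries of 2 days, and 114 to 132, 259 to 272, 202 to 226 and 151 to 162 in the vehicle, VIC-1911, olaparib and combination libraries of 7 days. For 10 G2 and mitosis genes, such as MKI67, CCNB1 and PLK1, it was 391 to 400 and 353 to 367 at 2 days, and 88.2 to 132, 295 to 313, 155 to 179 and 110 to 117 at 7 days. All 10 S phase genes rose with VIC-1911 and with olaparib at 7 days (median log2 fold changes 1.11 and 0.88), 6 of 10 with the combination (0.30), and all 10 had an interaction below 0 (-1.55). These medians lie further from 0 than those of the repair genes in the same comparisons. From the 7-day vehicle to the combination the S phase sum was higher. For the repair genes the ranges of the summed FPKM overlapped between these 2 groups. Their median FPKM was lower under the combination, and their median log2 fold change was 0.06, so the direction for the repair genes depended on the measure. MUS81 and BARD1 fell with VIC-1911 and with olaparib at 7 days while the S phase genes rose. The part of the cell cycle in the repair gene values was not tested. AURKA itself, which the drug inhibits as a protein, was at 24.7 to 31 FPKM at 2 days, and at 7 days at 5.45 to 8.01 in vehicle, 23.0 to 25.9 under VIC-1911, 8.23 to 10.1 under olaparib and 6.57 to 7.33 under the combination.

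**Figure D5:**
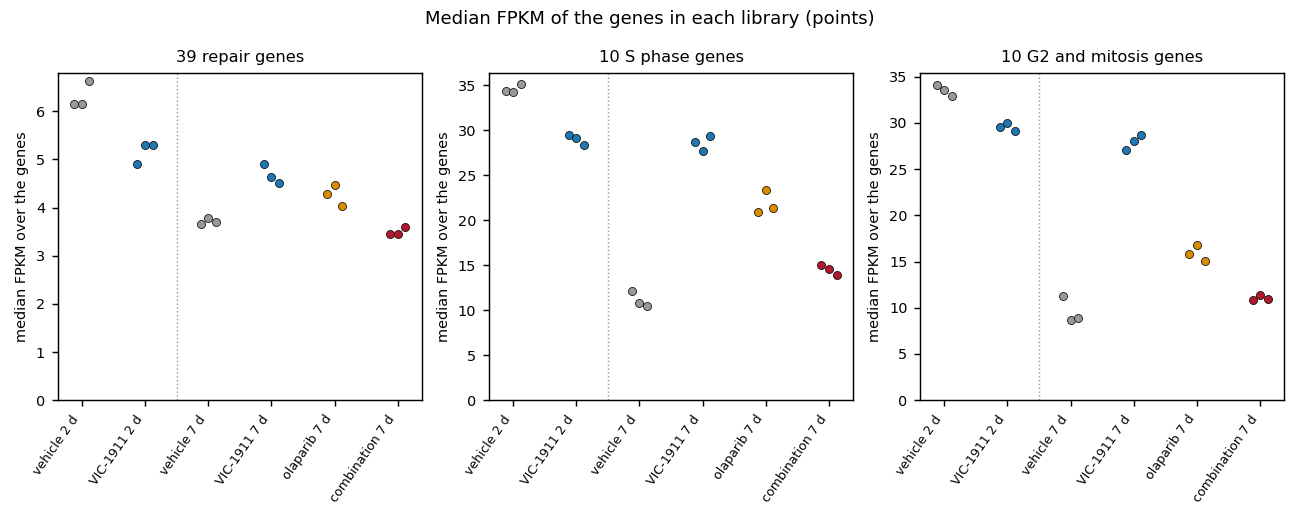
Median FPKM (y axis, each panel from 0) of the 39 repair genes, 10 S phase genes and 10 G2 and mitosis genes in each library (points), by group (x axis). In all 3 panels the 7-day vehicle is far below the 2-day vehicle and the 7-day VIC-1911 libraries are the highest of their time, while the combination lies near the 7-day vehicle for the repair and mitosis genes.

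A list of 42 further genes of these pathways, among them the RPA single-strand binding proteins, EXO1, DNA2 and the RMI and FANCM partners, was read in the same fits. At 2 days 7 of 36 tested were lower with VIC-1911 and 0 higher, with 29 not passing, against 7.19% and 7.50% of all tested genes. At 7 days 21 of 37 tested were higher and 4 lower with VIC-1911, against 26.6% and 25.8% of all. With olaparib 15 were higher and 6 lower, against 28.1% and 25.9% of all. With the combination 12 were higher and 5 lower, against 28.6% and 28.0% of all. The interaction passed below 0 for 19 and above 0 for 2, against 22.9% and 21.0% of all. The lowest edgeR adjusted p under the combination were those of EME2 (0.84 ± 0.06, edgeR adjusted p = 1.97e-12), an alternative partner of MUS81, RMI1 (-0.55 ± 0.07, edgeR adjusted p = 1.61e-07), a partner of BLM, RFWD3 (0.43 ± 0.07), RECQL5 (-0.34 ± 0.07), DNA2 (0.49 ± 0.11) and NUCKS1 (-0.19 ± 0.04). EME1, the partner of MUS81 among the 39 genes, was at 2.75, 2.81 and 1.83 FPKM in vehicle and 2.86, 2.72 and 2.84 under the combination and did not pass (0.12 ± 0.13).

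Promoter windows of RefSeq (GRCh38.p14), from 250 bases before to 50 bases after an annotated start, were found for 35 of the 39 genes. They were searched on both strands for the E2F site of cell cycle genes (TTTCCCGC, TTTCGCGC, TTTGCCGC or TTTGGCGC), the CHR element (TTTGAA) and the CCAAT box (CCAAT). The E2F letters were in the windows of 5 genes, XRCC2, FANCA, FANCC, FANCD2 and GEN1, that is 14.3% of 35 against 3.99% of all 27305 genes with a window. The CHR letters were in 14.3% against 18.2%, and CCAAT in 45.7% against 39.7%. The windows below are shown for XRCC2, FANCD2 and FANCA, which rose with either single drug at 7 days and hold the E2F letters. Those of BRCA1 and MUS81, which fell under the combination, are shown as well, though BRCA1 also rose with either single drug. FANCD2 and FANCA were added after the search for their match, and BRCA1 is shown at 1 of its 2 windows. Capitals mark E2F letters (GCGGGAAA or GCGGCAAA on the printed strand) and CCAAT boxes, which do not overlap each other.
XRCC2 (chr7:152676092-152676391, minus strand): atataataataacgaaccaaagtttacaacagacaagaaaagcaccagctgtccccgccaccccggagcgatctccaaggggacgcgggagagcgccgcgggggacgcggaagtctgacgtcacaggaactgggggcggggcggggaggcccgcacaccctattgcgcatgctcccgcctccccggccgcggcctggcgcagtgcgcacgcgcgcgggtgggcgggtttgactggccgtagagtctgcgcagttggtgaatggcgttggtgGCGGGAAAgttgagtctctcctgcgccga
FANCD2 (chr3:10026187-10026486, plus strand): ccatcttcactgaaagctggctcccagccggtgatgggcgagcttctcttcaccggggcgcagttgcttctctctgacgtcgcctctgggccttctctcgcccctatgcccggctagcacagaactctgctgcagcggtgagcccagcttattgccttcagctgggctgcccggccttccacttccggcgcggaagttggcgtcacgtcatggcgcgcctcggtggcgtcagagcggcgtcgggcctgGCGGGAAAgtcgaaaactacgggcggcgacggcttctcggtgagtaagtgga
FANCA (chr16:89816598-89816897, minus strand): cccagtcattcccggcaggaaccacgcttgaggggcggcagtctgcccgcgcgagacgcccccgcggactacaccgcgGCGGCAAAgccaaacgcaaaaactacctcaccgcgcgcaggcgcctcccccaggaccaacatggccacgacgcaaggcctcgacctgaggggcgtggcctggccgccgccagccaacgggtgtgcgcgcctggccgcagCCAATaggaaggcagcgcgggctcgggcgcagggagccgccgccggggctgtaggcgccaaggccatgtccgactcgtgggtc
BRCA1 (chr17:43125315-43125614, minus strand): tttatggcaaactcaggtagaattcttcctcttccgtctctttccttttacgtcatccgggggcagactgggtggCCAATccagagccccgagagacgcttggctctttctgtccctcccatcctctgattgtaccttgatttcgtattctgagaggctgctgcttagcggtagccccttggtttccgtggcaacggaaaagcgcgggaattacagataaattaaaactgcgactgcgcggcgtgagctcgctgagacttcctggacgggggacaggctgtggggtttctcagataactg
MUS81 (chr11:65860183-65860482, plus strand): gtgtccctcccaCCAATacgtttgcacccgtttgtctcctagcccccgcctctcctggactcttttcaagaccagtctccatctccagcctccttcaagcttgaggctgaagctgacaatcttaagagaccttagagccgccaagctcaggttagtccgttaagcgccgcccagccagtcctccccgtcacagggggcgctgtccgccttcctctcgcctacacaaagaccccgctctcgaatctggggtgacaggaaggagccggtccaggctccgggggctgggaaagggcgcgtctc
Counted from the start, the E2F letters begin at 22 in XRCC2, at -2 in FANCD2 and at -172 in FANCA. BRCA1 and MUS81 hold CCAAT letters and no E2F match in these windows. The windows of BARD1 and RAD51B, which also fell under the combination, hold none of the letters searched. Neither do those of RAD51C, which rose with either single drug and with the combination. BRCA2, UBE2T, RAD51AP1 and RAD54L also rose with either single drug, and their windows hold no E2F letters. No window of RAD54B, NBN, WRN or FANCI was used here.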

How the data were processed

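RNA-seq libraries of polyadenylated RNA were trimmed, aligned to GRCh38 (hg38) and counted per gene by the authors with STAR (2.6.0 in the submitters' processing notes). The authors deposited raw counts per gene and, from an in-house script, FPKM values per gene, in separate tables for 2 and 7 days; strand, multimapping and annotation settings are not given in the sources used here. Groups were taken from the sample labels, and columns were matched by library name.

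The main test was edgeR 4.0.16 (R 4.3.3) on the deposited counts: TMM scaling, a minimum of 10 counts in 3 or more of the fitted libraries, quasi-likelihood test, and Benjamini-Hochberg adjustment over all genes tested, with a threshold of 0.05. The study's methods used DESeq2, which was an alternative here. The 6 libraries of 2 days, the 12 of 7 days and, for the difference between times, 12 vehicle and VIC-1911 libraries were fitted separately. TMM factors were 0.975 to 1.02. Log2 fold changes are given ± SE with intervals of 95%. The SE is the absolute log2 fold change divided by the square root of the F statistic of the test. The intervals take the SE as normal, without allowance for the small number of libraries, and so run narrow. FPKM values served for levels and for limma on log2(FPKM + 0.1) or log2(FPKM + 1). Alternatives were DESeq2 1.42.0, limma 3.58.1, other scaling or no filter, a replicate block, fits of 2 groups alone and leaving out each library.

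The members and lists were chosen with earlier results of these data known. Values in every library were given, in each comparison with vehicle, for the 4 members with the largest decrease and the 2 with the largest increase past the threshold, for up to 6 members of the interaction by adjusted p, and for BRCA1, BRCA2, PALB2, FANCD2 and FANCI. Up to 6 other pathway genes were named by adjusted p under the combination. EME1, FANCF and the windows of FANCD2 and FANCA were added after their values were seen. Sequences are from RefSeq tables. Scripts were tested on simulated counts. Basal, fibroblast and leukocyte markers beyond those named were at 0 to 0.201 FPKM, the highest being COL3A1. Some items are not reported here.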

Additional observations from a re-analysis of the deposited data

Results flagged for a closer look

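These results are listed because the effect of VIC-1911 differed between 2 settings by a test of the difference itself, and no explanation was tested. At 7 days the effect of VIC-1911 with olaparib was below its effect without olaparib for 25 of the 39 repair genes and above it for 2 (interaction term, edgeR adjusted p under 0.05), where 22.9% and 21.0% of all tested genes passed. The log2 differences were -1.46 for FANCI, -1.74 for BRCA2, -1.59 for UBE2T, -1.22 for BRCA1 and -1.47 for RAD51AP1, and 1.26 for MUS81 and 0.45 for RAD52.

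Between the times, the effect of VIC-1911 was above its 2-day value at 7 days for 21 genes and below it for 1, where 14.6% and 14.2% of all tested genes passed. The log2 differences were 1.12 for FANCI, 1.39 for UBE2T, 1.04 for BRCA1 and 1.26 for BRCA2, and -0.90 for MUS81. RAD52 is named as the other gene with an interaction above 0 past the threshold, a call lost with 4 of the 12 libraries left out in turn. The remaining genes named were chosen by the adjusted p of the interaction.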

How the results depend on the processing

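No called gene of the 39 changed direction under any alternative. Of the 27, 28 and 19 calls against vehicle at 7 days for VIC-1911, olaparib and the combination, 21, 17 and 11 passed in every alternative, as did 4 of 12 at 2 days, 7 of 18 for the combination against olaparib, 20 of 23 for it against VIC-1911, 24 of 27 for the interaction and 20 of 22 between times. Scaling moved the median of all genes by less than 0.1 on the log2 scale. The cause of the changes below was not tested.

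At 2 days, lower genes numbered 7 with DESeq2 and 5 and 5 with limma on log2(FPKM + 0.1) and log2(FPKM + 1), and 0 passed 1.5-fold without the filter. With limma on log2(FPKM + 0.1), on log2(FPKM + 1) and on genes of mean FPKM at least 1, lower genes under VIC-1911 at 7 days numbered 1, 1 and 1, genes past 2-fold under the combination 1, 1 and 1, and interactions above 0 numbered 1, 1 and 1. With the first 2 of these, lower genes numbered 2 and 2 under olaparib and 8 and 9 for the combination against olaparib, and higher genes 0 and 0 for the combination against VIC-1911. On log2(FPKM + 1), genes past 2-fold numbered 2 under VIC-1911 and 1 under olaparib. With mean FPKM at least 1, 4 genes were lower under the combination. Without scaling, 1 gene passed 2-fold under the combination.

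With 1 library left out, lower and higher genes numbered 8 to 12 and 0 at 2 days (0 to 2 past 1.5-fold), 1 to 4 and 21 to 22 under VIC-1911 (3 to 6 past 2-fold, 3 without vehicle replicate 2), 3 to 4 and 18 to 22 under olaparib (1 to 2), 7 to 8 and 9 to 11 under the combination (1 to 2), 12 to 18 and 0 for the combination against olaparib, 20 to 23 and 0 to 2 against VIC-1911, 23 to 26 and 1 to 3 for the interaction, and 1 to 2 and 20 to 21 between times.

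Replicate numbers did not pair the libraries: correlations of same-numbered libraries were -0.00285 to 0.0439 at 2 days and -0.0355 to 0.111 at 7 days. With the replicate block the counts of lower and higher genes were 12 and 0 at 2 days, 4 and 24 under VIC-1911, 4 and 23 under olaparib, 9 and 12 under the combination, 17 and 0 for it against olaparib, 22 and 1 against VIC-1911, 25 and 2 for the interaction and 1 and 21 between times. Low counts limit the precision of FANCB and RAD51B.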
